A study of Sus scrofa with 9 samples.

Results

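The antioxidant enzyme genes GPX1, CAT, SOD1, SOD2 and HMOX1 were followed in nascent RNA of pig myocardium after coronary occlusion. They were chosen by name, as the rows whose RefSeq accession carries one of these symbols, and are 5 of the 3890 genes named in the deposited table. Each symbol has 1 annotated position in the table, so no choice between positions was needed. Nascent RNA was read by GRO-seq, in which engaged polymerases extend labelled transcripts in isolated nuclei, in 9 libraries from 3 female farm pigs, 24 hours after an embolization coil had been placed in the distal left anterior descending coronary artery. The groups are ischemic, border zone and healthy myocardium, with 3 libraries each, and replicates 1 to 3 of each group come from pigs 1 to 3. The healthy tissue was thus taken from the same occluded hearts and not from unoperated animals, and all groups share the occlusion and the collagenase dispersal of the tissue. Each group holds 1 library per pig, so the spread within a group joins that between animals with that of tissue sampling, library and counting. These cannot be told apart.

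Superoxide and hydrogen peroxide are reactive by-products of respiration and are also made on purpose by oxidases of phagocytes. Superoxide dismutases turn superoxide into hydrogen peroxide, with SOD1, the copper-zinc enzyme, mainly in the cytosol and SOD2, the manganese enzyme, in the mitochondrial matrix. Hydrogen peroxide is then reduced to water by catalase, the CAT product of peroxisomes, or by GPX1, a selenium-containing glutathione peroxidase of cytosol and mitochondria. HMOX1, inducible haem oxygenase, breaks haem down to biliverdin, carbon monoxide and iron and is a classical stress-induced gene.

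Of the 5 members, 4 passed the filter on low values, and HMOX1, listed at 0, did not. Of those 4, 3 changed in ischemic against healthy myocardium, and they did not all go the same way. GPX1 rose 7.93-fold and SOD2 rose 2.62-fold, while CAT fell, with a level 2.91-fold higher in healthy myocardium. These folds come from mean log2 values of RPKM (reads per kilobase of gene span, scaled to the library total) with 0.1 added. SOD1 did not pass the threshold, an adjusted p under 0.05 by limma over the 2384 positions whose mean over the libraries reached 0.5 RPKM. In the same comparison 18.5% of these positions were higher and 9.1% were lower. CAT, with an ischemic mean under 0.5 RPKM, was tested through the other zones, so its place there is not independent of its fall. In border zone against healthy myocardium 1 member rose, GPX1, where 5.79% of positions were higher and 0.21% lower. In ischemic against border zone myocardium 0 of the 4 passed in limma, where 0.168% of positions were higher and 0.965% lower. For that comparison 1 member, CAT, had an unadjusted p under 0.05, and limma-voom on reads called 0. The 3 comparisons reuse the same 9 libraries in pairs of zones and are not independent of each other. These are bulk libraries, so fewer cells of a type and less RNA per cell cannot be told apart.

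Ranges of single libraries gave a similar count. Between ischemic and healthy myocardium 2 members did not overlap with ischemic higher and 1 with ischemic lower, where this held for 28.4% and 14.9% of tested positions. Between border zone and healthy myocardium it was 2 and 0 members, against 25.7% and 6.71% of positions. Between ischemic and border zone myocardium it was 0 and 1, against 8.56% and 11.5%. Non-overlap is thus common in this table, and the members' counts stand beside that background.

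**Figure D1:**
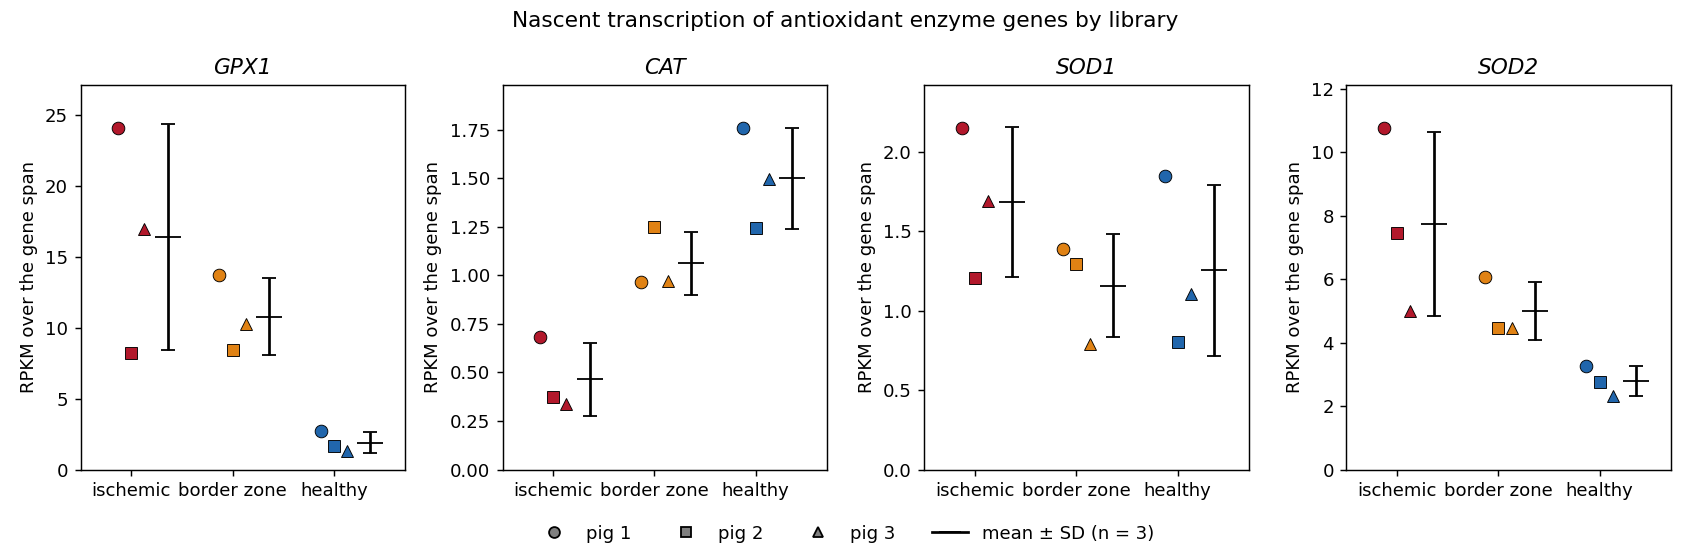
RPKM over the gene span (vertical axis, from 0) of GPX1, CAT, SOD1 and SOD2 in each library, by zone, with a marker per pig and the mean ± SD of each zone (n = 3). All 3 ischemic and all 3 border zone points of GPX1 and SOD2 lie above the healthy points, all 3 ischemic points of CAT lie below the others, and the SOD1 ranges overlap.

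Library totals were 883656 to 2134087 reads in ischemic, 2187977 to 7005976 reads in border zone and 2730083 to 6531658 reads in healthy myocardium. The ischemic libraries are the shallowest, and their values carry the widest counting error. Median read counts of a tested position were 16 to 46 in ischemic, 40 to 134 in border zone and 45 to 94 in healthy libraries. Among counts of 1 to 30 reads, multiples of 3 exceeded an even share of 33.3% in 8 of 9 libraries. The share was largest in ischemic replicates 2 (44.7%) and 3 (53.2%). Reads may thus not be independent molecules. The counting intervals below treat reads as independent and cover counting error only, so they can be too narrow. The median log2 difference of all tested positions was 0.21 for ischemic against healthy, 0.22 for border zone against healthy and -0.04 for ischemic against border zone, and member changes are to be read relative to these shifts.

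Markers of the cells in the tissue moved between the same zones as the members. The 10 cardiomyocyte markers in the table summed to 68.9 to 243 RPKM in ischemic, 167 to 295 RPKM in border zone and 355 to 630 RPKM in healthy libraries, with none at 0 reads in any zone, and 7 of 10 fell in ischemic against healthy myocardium. Of these markers 0 of 10 passed by limma in border zone against healthy, where 0.21% of all tested positions were lower. At an unadjusted p under 0.05, 6 were lower, beside 510 of all 2384 positions in either direction. Limma-voom called 5 lower, beside 39 of all 2384 positions. The 10 macrophage and monocyte markers summed to 34.1 to 43.6, 17.8 to 28.5 and 1.60 to 3.57 RPKM in ischemic, border zone and healthy libraries, and 5 of the 6 tested rose in ischemic against healthy and 4 in border zone against healthy myocardium. CD163 and FCGR3A of that list are on unplaced scaffolds and had no value. Markers close to 0 in healthy tissue passed the filter only through a high value elsewhere, so counts of those that rose are not independent of it. Over all tested positions 18.5% were higher and 9.1% lower in ischemic against healthy, and 5.79% higher in border zone against healthy myocardium. The 6 neutrophil markers summed to 14.1 to 30.5, 5.28 to 10.9 and 0.0995 to 0.323 RPKM, and MMP9, S100A8, S100A9 and S100A12 held no read in healthy libraries.

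Markers of other cell types were summed in the same way. Over all tested positions 18.5% were higher in ischemic against healthy myocardium, and the counts below stand beside that share. The 4 endothelial markers summed to 10.2 to 14.5 RPKM in ischemic, 6.18 to 8.58 RPKM in border zone and 5.68 to 6.37 RPKM in healthy libraries, and 3 of 4 rose in ischemic against healthy myocardium. Among those that rose is NOS3, which is also in the oxidase list below and whose call failed on leaving out any 1 of 7 libraries. The 7 fibroblast and smooth muscle markers summed to 15.5 to 19.7, 12.5 to 14.7 and 10.1 to 13.3 RPKM, with 3 of 6 tested higher in ischemic against healthy. The 8 lymphocyte markers summed to 4.37 to 5.67, 3.11 to 6.62 and 1.65 to 3.57 RPKM, with 0 of 3 tested past the threshold in ischemic against healthy by limma or limma-voom and 0 at an unadjusted p under 0.05. The 2 erythroid markers summed to 19.8 to 66.3, 1.45 to 8.74 and 3.04 to 14.6 RPKM, HBB, the one tested, rose in ischemic against healthy myocardium, and EPOR held no read in ischemic libraries. The part of these shifts in the changes of GPX1, SOD2 and CAT was not tested.

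SOD2 (NM_214127) lies on chromosome 1 from 9475310 to 9485526, plus strand, on the susScr3 build, a span of 10216 bp of which 16.3% is exon, and all coordinates here are as the table lists them. It had 10.8, 7.46 and 4.98 RPKM in ischemic replicates 1 to 3, 6.06, 4.46 and 4.47 RPKM in border zone replicates, and 3.26, 2.77 and 2.31 RPKM in healthy replicates. Every ischemic and every border zone library was above every healthy library, and the ischemic and border zone ranges overlapped. Ischemic libraries held 235, 87 and 45 reads of SOD2, border zone libraries 220, 319 and 100, and healthy libraries 91, 97 and 154. The means were 7.74 ± 2.91, 5.00 ± 0.923 and 2.78 ± 0.477 RPKM for ischemic, border zone and healthy myocardium (SD, n = 3 each).

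SOD2 rose in ischemic against healthy myocardium by 1.39 ± 0.31 on the log2 scale (± SE, limma, adjusted p = 0.0146), and was higher in 3 of 3 pigs. Within pigs the log2 difference was 1.69, 1.40 and 1.08 in pigs 1 to 3. The call was lost by a small margin without healthy replicate 3, the deepest healthy library (log2 difference 1.27, adjusted p = 0.0503). In border zone against healthy myocardium the log2 difference was 0.82 ± 0.31 (95% interval 0.11 to 1.53), also higher in 3 of 3 pigs, but the adjusted p of 0.179 missed the threshold, as did that with pig as a block (0.0672). The ischemic against border zone difference was 0.57 ± 0.31 (-0.14 to 1.28, adjusted p = 0.427). SOD2 transcription in the border zone thus had a mean between the other zones, which the tests did not separate from either.

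SOD1 (NM_001190422) lies on chromosome 13 from 205620994 to 205629705, plus strand, with 7.30% of its 8711 bp span in exons. Its values were 2.15, 1.21 and 1.69 RPKM in ischemic replicates 1 to 3, 1.39, 1.29 and 0.787 RPKM in border zone replicates, and 1.85, 0.804 and 1.11 RPKM in healthy replicates. The 3 zones overlapped, and the highest library of the healthy group exceeded all border zone libraries. Reads numbered 40, 12 and 13 in ischemic, 43, 79 and 15 in border zone and 44, 24 and 63 in healthy libraries, so that single values of the shallow ischemic libraries are loose: the 12 reads of ischemic replicate 2 give an exact 95% counting interval of 0.624 to 2.11 RPKM.

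No SOD1 difference passed the threshold. In ischemic against healthy myocardium the log2 difference was 0.44 ± 0.36 (95% interval -0.38 to 1.25, limma adjusted p = 0.4), with ischemic higher in 3 of 3 pigs. In border zone against healthy it was -0.07 ± 0.36 (-0.88 to 0.75, adjusted p = 0.945), and its sign turned without healthy replicate 1 (0.23) or border zone replicate 3 (0.16) and by limma-voom (0.06). Ischemic against border zone, it was 0.50 ± 0.36 (-0.31 to 1.32, adjusted p = 0.544). These intervals still hold sizeable changes, so equal transcription was not shown. In the RefSeq annotation of Sscrofa11.1, a later build, SOD1 overlaps SCAF4, and since no source used here gives the strand setting of the authors' counting, reads of overlapping genes cannot be told apart.

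**Figure D2:**
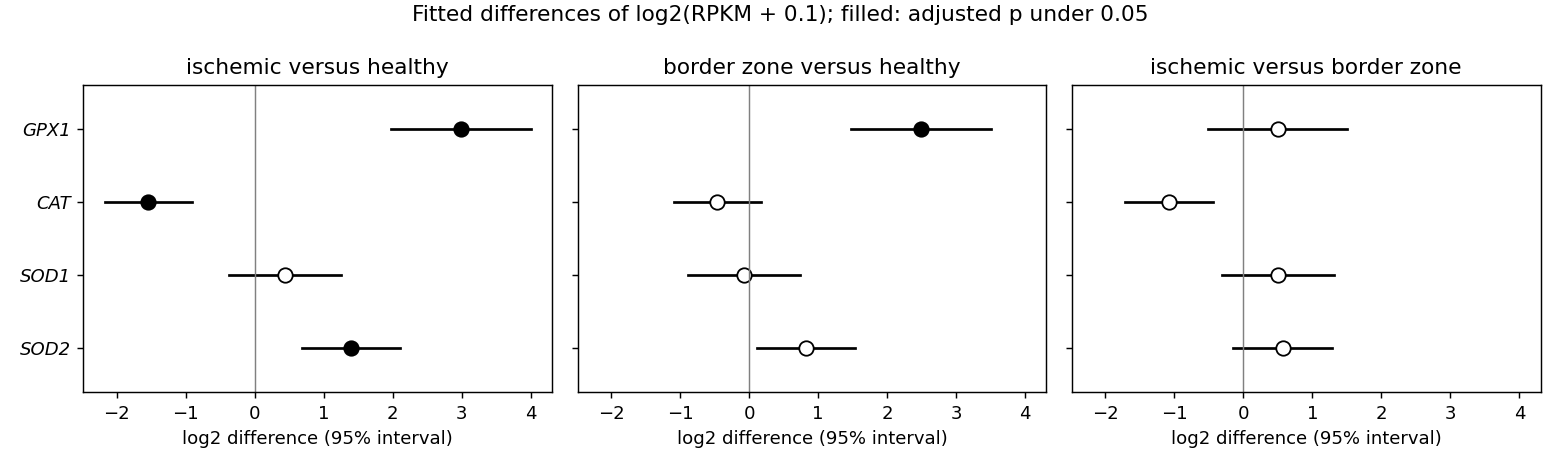
Fitted log2 differences with 95% intervals (horizontal axis) of GPX1, CAT, SOD1 and SOD2 for the 3 comparisons, with filled points for an adjusted p under 0.05. GPX1 at 2.99 and 2.49, SOD2 at 1.39 and CAT at -1.54 are the filled points, and the intervals of SOD1 span 0 in each comparison.

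GPX1 showed the widest range of the 4 genes. Its position (NM_214201, chromosome 13 from 35147277 to 35148345, minus strand) is 1068 bp long, of which 74.6% is exon, so few reads support each value. It had 24.1, 8.21 and 17.0 RPKM in ischemic replicates 1 to 3, 13.7, 8.42 and 10.3 RPKM in border zone replicates, and 2.74, 1.64 and 1.29 RPKM in healthy replicates. The lowest ischemic and border zone libraries lay far above the highest healthy library, while ischemic and border zone ranges overlapped. Ischemic libraries held 55, 10 and 16 reads of GPX1, border zone libraries 52, 63 and 24, and healthy libraries 8, 6 and 9. The exact 95% counting interval of the lowest ischemic value was 3.94 to 15.1 RPKM and that of the highest healthy value 1.18 to 5.41 RPKM, so single libraries can overlap within counting error where the groups do not.

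The GPX1 means were 16.4 ± 7.98 RPKM in ischemic, 10.8 ± 2.69 RPKM in border zone and 1.89 ± 0.759 RPKM in healthy myocardium (SD, n = 3 each). GPX1 rose in ischemic against healthy myocardium by 2.99 ± 0.44 on the log2 scale (limma, adjusted p = 0.00284), with 3.09, 2.26 and 3.62 in pigs 1 to 3. It also rose in border zone against healthy myocardium by 2.49 ± 0.44, which is 5.62-fold (adjusted p = 0.0182), with 2.28, 2.29 and 2.90 in pigs 1 to 3. The border zone call was lost without healthy replicate 2 (adjusted p = 0.0796), healthy replicate 3 (0.0632), border zone replicate 1 (0.093) or border zone replicate 3 (0.078), with log2 differences of 2.26 to 2.78 over all libraries left out in turn. Ischemic and border zone myocardium did not differ past the threshold (0.50 ± 0.44, 95% interval -0.51 to 1.51, adjusted p = 0.645), and pig 2 had equal levels in both zones to within 0.04 on the log2 scale. GPX1 had a larger log2 difference than 96.9% of tested positions in ischemic against healthy and than 95.7% in border zone against healthy myocardium.

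CAT (NM_214301, chromosome 2 from 28860864 to 28900834, minus strand) went the other way. Its span of 39970 bp is 5.85% exon, and the values do not show where in the span its reads lie. CAT values rest on more reads than those of GPX1 in every library but 1. It had 0.680, 0.373 and 0.340 RPKM in ischemic replicates 1 to 3, 0.965, 1.25 and 0.972 RPKM in border zone replicates, and 1.76, 1.24 and 1.50 RPKM in healthy replicates. Every ischemic library lay below every other library, and border zone and healthy ranges touched only in pig 2, whose levels in those zones were 1.25 and 1.24 RPKM. Reads numbered 58, 17 and 12 in ischemic, 137, 349 and 85 in border zone and 192, 170 and 391 in healthy libraries. The means were 0.464 ± 0.188, 1.06 ± 0.16 and 1.50 ± 0.259 RPKM for ischemic, border zone and healthy myocardium (SD, n = 3 each).

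CAT fell in ischemic against healthy myocardium by 1.54 on the log2 scale (SE 0.28, limma, adjusted p = 0.00606), and was lower in 3 of 3 pigs, with log2 differences of -1.25, -1.50 and -1.86 in pigs 1 to 3. With a pseudocount of 1 in place of 0.1, which shrinks changes of weak genes, the difference was -0.77, still past the threshold. Ischemic CAT averaged 0.464 RPKM, under the filter of 0.5 RPKM, so CAT was tested through its level in the other zones. Its place among the tested genes is thus not independent of its fall. Without a filter the call held. Set against the border zone, ischemic CAT had a log2 difference of -1.08 ± 0.28 (95% interval -1.72 to -0.45), lower in 3 of 3 pigs, with an adjusted p of 0.115 that missed the threshold, and 0.0472 without ischemic replicate 1. The border zone against healthy difference was -0.46 ± 0.28 (-1.09 to 0.18, adjusted p = 0.393), with 2 of 3 pigs lower. The test for the border zone did not separate CAT from healthy myocardium. GPX1 was called there, but that call was lost on leaving out any 1 of 4 libraries, and no test compared the genes with each other.

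HMOX1 (NM_001004027) was listed at 0 RPKM in all 9 libraries, and this 0 cannot be read as an absence of transcription. The table places it on the unplaced scaffold GL894747-1, from 2935 to 9591 on the minus strand, and 0 of the 548 positions on unplaced scaffolds held a read in any library. Of the 4334 positions on chromosomes, 479 held no read. If reads could have been placed there, a floor of 3 reads over a group would correspond to 0.108 RPKM in ischemic, 0.0354 RPKM in border zone and 0.0355 RPKM in healthy myocardium, over its span of 6656 bp. In single libraries that floor would be 0.211 to 0.51 RPKM in ischemic, 0.0643 to 0.206 RPKM in border zone and 0.069 to 0.165 RPKM in healthy myocardium. HMOX1 did not enter any test, and no fold is given.

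RPKM is scaled per length of gene span, and the order of its values across genes is given as a description. The genes differ in span and exon share, from 1068 bp and 74.6% for GPX1 to 39970 bp and 5.85% for CAT. The order of values is therefore not a measured order of transcription. In ischemic myocardium the order of mean RPKM was GPX1, SOD2, SOD1 and CAT, and the neighbours GPX1 and SOD2 overlapped in range, while SOD2 and SOD1, and SOD1 and CAT, did not. The border zone had the same order, with SOD1 and CAT overlapping at 1.16 ± 0.324 and 1.06 ± 0.16 RPKM. In healthy myocardium the order was SOD2, GPX1, CAT and SOD1, and each gene overlapped in range with the next. The means of the 4 genes thus ran from 1.25 to 2.78 RPKM in healthy and from 0.464 to 16.4 RPKM in ischemic myocardium.

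A ratio of 2 RPKM values within a library does not depend on the library total. For the log2 ratios, which have 0.1 added to each value, this holds only approximately. The ratio of GPX1 to CAT RPKM, the peroxide-reducing pair, was 35.5, 22.0 and 49.9 in ischemic replicates 1 to 3, 14.2, 6.76 and 10.6 in border zone replicates, and 1.56, 1.32 and 0.861 in healthy replicates. The 3 zones did not overlap in this ratio. On the log2 scale with 0.1 added it averaged 4.79 ± 0.59 in ischemic, 3.21 ± 0.52 in border zone and 0.26 ± 0.42 in healthy myocardium (SD, n = 3 each). This ratio was chosen after the values of both genes were seen and is given as a description with no test.

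The ratio of SOD2 to SOD1 RPKM, mitochondrial over cytosolic dismutase, was 5.01, 6.18 and 2.95 in ischemic replicates 1 to 3, 4.36, 3.44 and 5.68 in border zone replicates, and 1.76, 3.45 and 2.08 in healthy replicates. Healthy replicate 2 lay within the range of both other zones in RPKM, and only with 0.1 added did the border zone values of 1.71 to 2.37 on the log2 scale stand just above the healthy values of 0.79 to 1.67. The mean log2 ratios were 2.10 ± 0.53, 2.04 ± 0.33 and 1.15 ± 0.46 in ischemic, border zone and healthy myocardium. By 2-sided exact permutation over 20 splits, where 0.1 is the smallest p possible, ischemic against healthy had p = 0.2, border zone against healthy p = 0.1 and ischemic against border zone p = 0.9. The shift of 0.95 in ischemic against healthy myocardium was upward in 3 of 3 pigs, but this design could not have passed the threshold.

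**Figure D3:**
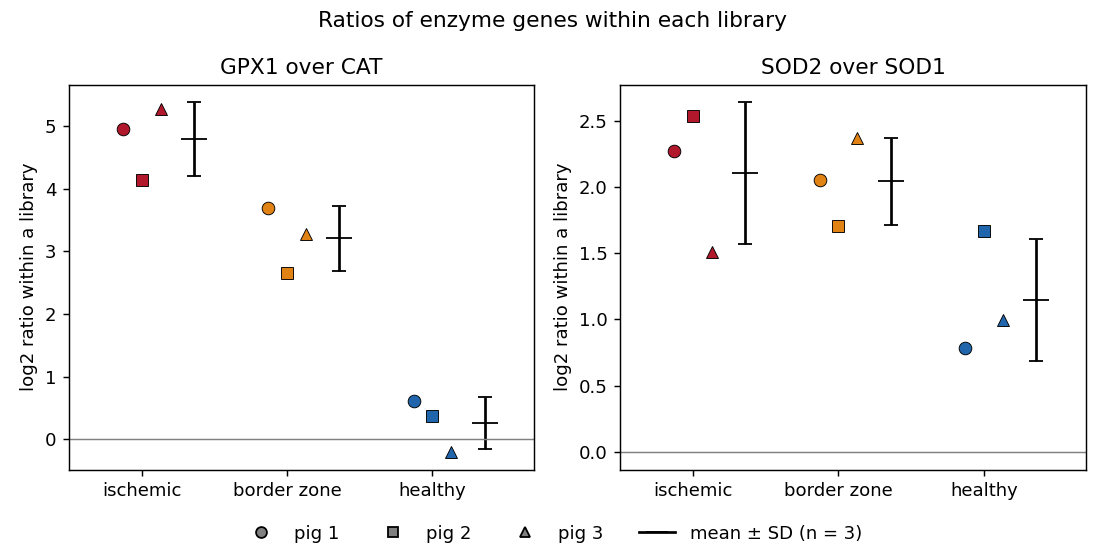
Log2 ratios of GPX1 to CAT and of SOD2 to SOD1 within each library (vertical axes, RPKM with 0.1 added), by zone, with a marker per pig and the mean ± SD (n = 3). The GPX1 over CAT ratios of the 3 zones do not overlap, at means of 4.79, 3.21 and 0.26, while ischemic and healthy values of SOD2 over SOD1 overlap.

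GPX1 and SOD2 were set beside the genes listed nearest to them, since strand handling is unknown and polymerases can run past the end of a gene. RHOA, a small GTPase gene, lies 1150 bp from GPX1 on the same strand and upstream of it (chromosome 13 from 35149495 to 35160516). RHOA had 5.78, 5.01 and 3.70 RPKM in ischemic, 3.30, 3.19 and 4.69 RPKM in border zone and 3.89, 3.87 and 2.61 RPKM in healthy replicates. Its ranges overlapped between zones, and it did not pass the threshold in ischemic against healthy (log2 difference 0.47 ± 0.28, limma adjusted p = 0.238) or border zone against healthy myocardium (0.11 ± 0.28, adjusted p = 0.875), and the sign of the border zone value turned with median scaling and quantile normalization. GPX1 exceeded RHOA in RPKM in each ischemic and border zone library and lay below it in each healthy library.

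WTAP, a subunit of the RNA methylation machinery and the nearest gene listed beside SOD2, lies 27653 bp away on the opposite strand. It had a log2 difference of 0.32 ± 0.27 in ischemic against healthy (adjusted p = 0.418) and 0.43 ± 0.27 in border zone against healthy myocardium (adjusted p = 0.417). USP4, a deubiquitinase gene on the other side of GPX1 at a distance of 11893 bp, had 0.37 ± 0.28 (adjusted p = 0.36) and 0.43 ± 0.28 (adjusted p = 0.437). USP4 passed in ischemic against healthy myocardium without ischemic replicate 2 (adjusted p = 0.0248). No listed position overlapped the span of a member.

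**Figure D4:**
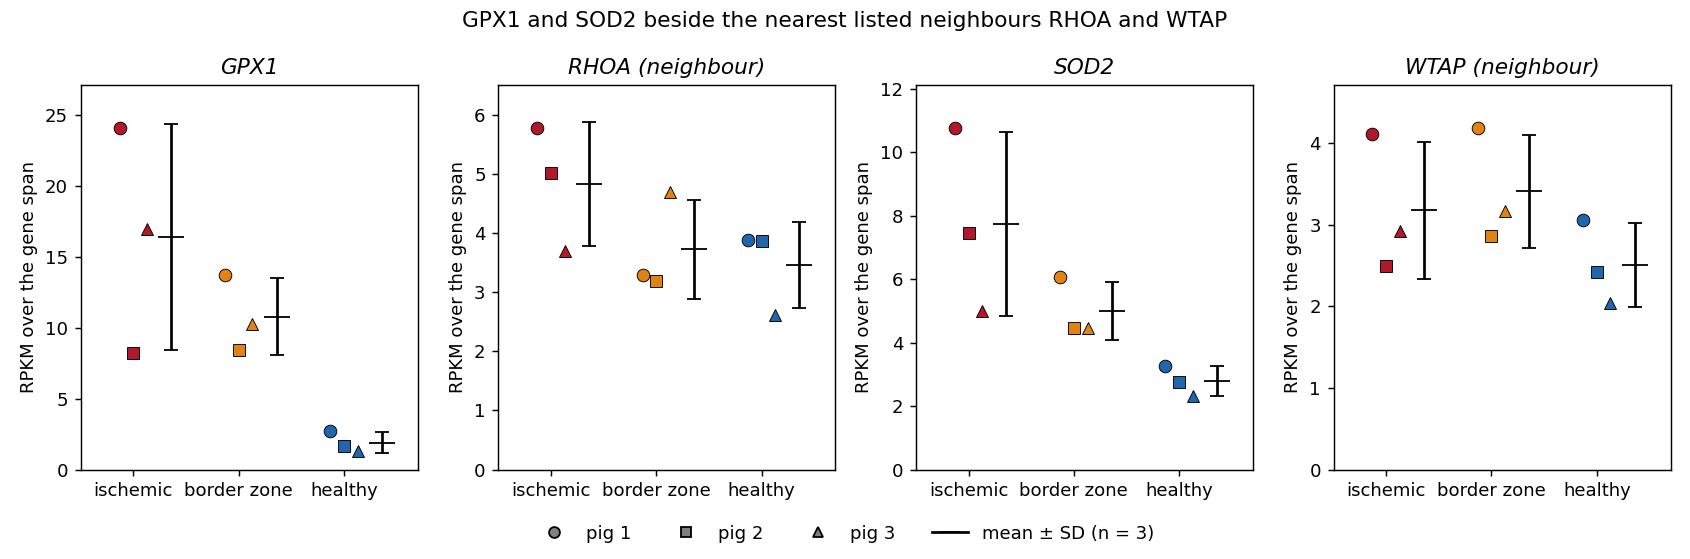
RPKM (vertical axes, from 0) of GPX1 and its upstream neighbour RHOA, and of SOD2 and WTAP, in each library by zone, with a marker per pig and the mean ± SD (n = 3). GPX1 separates healthy from both other zones, whereas RHOA values of 2.61 to 5.78 RPKM overlap across zones, and WTAP overlaps likewise.

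The members were then compared with each other and with 1986 other genes over the 9 libraries, as descriptions, since libraries of 1 pig and zone share their source and the zones alone create likeness. Pearson's r of log2(RPKM + 0.1) was 0.88 between GPX1 and SOD2, -0.66 between CAT and each of GPX1 and SOD2, 0.46 between GPX1 and SOD1, 0.51 between SOD2 and SOD1 and -0.22 between CAT and SOD1. The genes most like GPX1 were CTSZ, a lysosomal cathepsin (r = 0.996), SAT1, a polyamine acetyltransferase (0.986), and HK2, a hexokinase (0.985). Those most like SOD2 were MX1, an interferon-induced antiviral GTPase (0.979), EIF4G1, a translation initiation scaffold (0.968), and NUCB1, a calcium-binding Golgi protein (0.958). Those most like CAT were GNA11, a G protein alpha subunit (0.974), DAPL1 (0.974) and PALMD (0.968). SOD1 had the weakest leading values, with VCP, an AAA ATPase of protein quality control (0.933), TAP1, an antigen peptide transporter (0.924), and CLIC2 (0.902).

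Other redox genes were read from 5 lists, with 1 position per gene, and each list is described by its counts beside the median of all positions. Since the filter averages the 9 libraries, genes close to 0 in healthy tissue entered the test only through a high value elsewhere. The counts of each list in ischemic against healthy myocardium stand beside 18.5% of all tested positions higher and 9.1% lower, and with 3 to 9 genes tested a list, nothing is read from a count as particular to a list. Of 22 peroxiredoxin and thioredoxin genes, 11 were in the table and 9 were tested. In ischemic against healthy myocardium 1 rose and 0 fell, with a list median of -0.16 against 0.21 for all positions. The gene that rose was GLRX, glutaredoxin, which reduces glutathionylated proteins, with 5.08 ± 2.88 RPKM in ischemic and 0.863 ± 0.349 RPKM in healthy myocardium (log2 difference 2.35 ± 0.54, limma adjusted p = 0.0162). That call was lost without healthy replicate 2 (0.0588) or healthy replicate 3 (0.0503). PRDX3, the mitochondrial peroxiredoxin, had -0.78 ± 0.38, TXNIP, an inhibitor of thioredoxin, had -0.56 ± 0.27 and TXNRD1, cytosolic thioredoxin reductase, had 0.42 ± 0.22, and none of these passed.

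SOD3, the extracellular dismutase, and the tested glutathione enzymes other than GPX1 gave no call in ischemic against healthy myocardium. CCS, the copper chaperone of SOD1, had no value at its longest position, on an unplaced scaffold. A second CCS position, on chromosome 2, had 0.42 ± 0.44 in ischemic against healthy myocardium (limma, adjusted p = 0.507) and enters no count of the list. Of 25 genes listed, 13 were in the table and 7 were tested. In ischemic against healthy myocardium 0 passed by limma and 0 by limma-voom. Of all 2384 tested positions, limma-voom called 532 higher and 217 lower. An unadjusted p under 0.05 was held by 965 of those positions, in either direction, and by 1 gene of the list, which was higher. That gene was GSTM3, a glutathione transferase, at 1.50 ± 0.54 (adjusted p = 0.071), and its adjusted p was 0.0347 in the fit blocked on pig and passed also without healthy replicate 1 (0.0307). GSS, glutathione synthetase, had -0.45 ± 0.23, MGST3 had -1.27 ± 0.76 and GSTO1 had 0.70 ± 0.56. The other glutathione peroxidases tested were GPX4, which reduces lipid peroxides, at 0.03 ± 0.19, and GPX3, the secreted form, at -0.75 ± 0.85. The list median was 0.03.

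The list of the NRF2 circuit and of NADPH supply, which feeds glutathione reduction, held 18 genes, of which 7 were in the table and 6 were tested. In ischemic against healthy myocardium 2 were higher and 1 was lower, all 3 of them metabolic enzymes, with a list median of -0.19. Over all tested positions 18.5% were higher and 9.1% lower. TALDO1, transaldolase of the pentose phosphate pathway, rose with 3.79 ± 1.59 RPKM in ischemic and 0.753 ± 0.345 RPKM in healthy myocardium (2.18 ± 0.42, adjusted p = 0.00852). TKT, transketolase of the same pathway, rose by 0.81 ± 0.19 (adjusted p = 0.0165), a call lost without healthy replicate 3 (0.0542) and with quantile normalization (0.0731). IDH2, the mitochondrial NADPH-forming isocitrate dehydrogenase, fell by 1.69 on the log2 scale (SE 0.52, adjusted p = 0.0445), a call that failed on leaving out any 1 of 8 libraries, at adjusted p of 0.062 to 0.109, the exception being ischemic replicate 1. It was lost without a filter (0.0691) and in a fit on these groups alone (0.0907) as well. A second, 265 bp long IDH2 position had 0.05 ± 0.40 (adjusted p = 0.945). PARK7, a redox-sensing protein, had -1.42 ± 0.93 (adjusted p = 0.292), and KEAP1, the repressor of NRF2, had -0.43 ± 0.35 (adjusted p = 0.4), so neither passed.

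Haem and iron genes are the setting in which HMOX1 acts. Of 19 listed genes 14 were in the table and 6 were tested, with 1 higher, 2 lower and a median of -0.25 in ischemic against healthy myocardium. Over all tested positions 18.5% were higher and 9.1% lower. FTH1, the ferritin heavy chain that stores iron, rose with 61.0 ± 19.6 RPKM in ischemic and 15.1 ± 9.54 RPKM in healthy myocardium (2.13 ± 0.48, adjusted p = 0.0151, and 0.0532 without healthy replicate 2). FTL, the ferritin light chain, had 1.29 ± 0.47 (adjusted p = 0.075) and passed in the fit blocked on pig (0.0321), by limma-voom (0.0164) and without ischemic replicate 2 (0.0226). HMOX2, the constitutive haem oxygenase, fell by 0.75 on the log2 scale with 1.70 ± 0.242 RPKM in ischemic and 2.93 ± 0.6 RPKM in healthy myocardium (SE 0.24, adjusted p = 0.0476). The HMOX2 call failed on leaving out any 1 of 8 libraries, at adjusted p of 0.0507 to 0.145, the exception being healthy replicate 1, and with pig as a block (0.0543), a pseudocount of 1 (0.0535), no filter (0.0645) or a fit on these groups alone (0.0774). ALAS1, the first enzyme of haem synthesis, fell by 0.84 on the log2 scale (SE 0.20, adjusted p = 0.0165, with 0.0523 without healthy replicate 2 and 0.0546 by limma-voom).

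Of 20 listed oxidase genes, which make superoxide, peroxide or nitric oxide, 11 were in the table and 3 were tested. In ischemic against healthy myocardium 2 were higher and 0 lower, beside 18.5% and 9.1% of all tested positions. NCF1, whose healthy mean lies under the filter, was tested through its level in the other zones, so its place among the tested genes is not independent of its difference, and no list median is given. This gene, for a cytosolic subunit of the phagocyte NADPH oxidase, rose with 3.66 ± 2.16 RPKM in ischemic and 0.284 ± 0.113 RPKM in healthy myocardium (3.15 ± 0.59, adjusted p = 0.00722). NOS3, endothelial nitric oxide synthase, rose by 1.10 ± 0.32 (adjusted p = 0.0368), a call that failed on leaving out any 1 of 7 libraries, at adjusted p of 0.0536 to 0.108, the exceptions being border zone replicate 1 and ischemic replicate 3. It was also lost with median scaling (0.0519), quantile normalization (0.0719), no filter (0.0543) and a fit on these groups alone (0.0747). MAOA, monoamine oxidase A, had 0.55 ± 0.27 (adjusted p = 0.158). CYBA and RAC1, further subunits of the oxidase, are among the positions on unplaced scaffolds and hold no value.

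**Figure D5:**
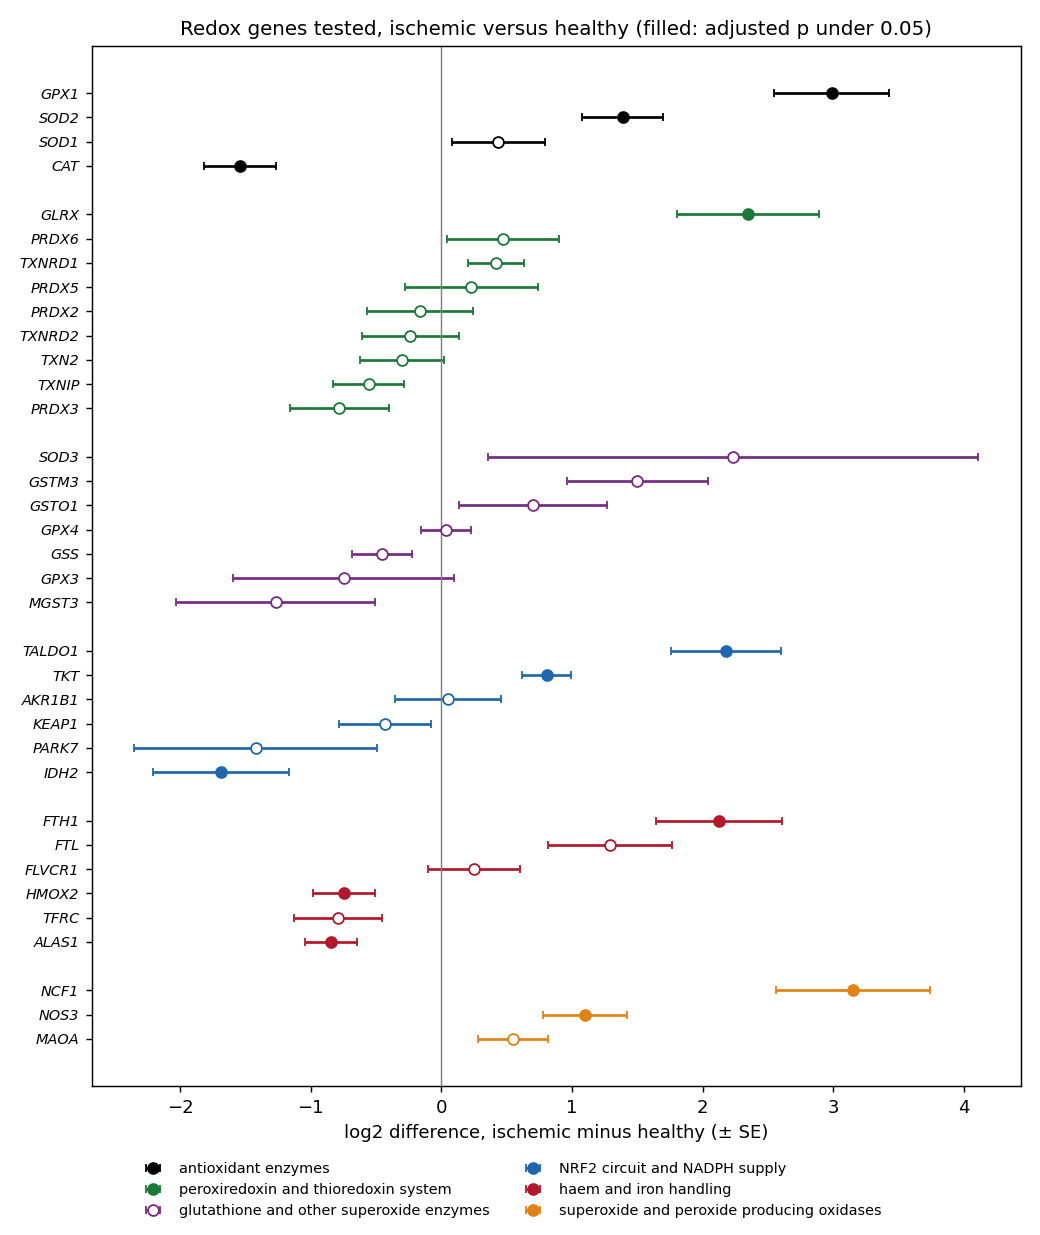
Log2 differences of ischemic minus healthy myocardium (horizontal axis, ± SE) for the members and the tested genes of the 5 redox lists, coloured by list, with filled points for an adjusted p under 0.05. GPX1, GLRX, TALDO1, FTH1 and NCF1 lie above 2 as filled points, and CAT and IDH2 lie below -1.5.

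In border zone against healthy myocardium, where 5.79% of all tested positions were higher, the oxidase list held 1 called gene of 3, NCF1 at 2.90 ± 0.59 (limma, adjusted p = 0.0322). With a healthy mean of 0.284 RPKM, under the filter, NCF1 was tested only through its level in the other zones. Its place among the tested genes is not independent of its difference, and nothing is read from this count. The NCF1 call was lost without healthy replicates 1 (0.0647), 2 (0.113) or 3 (0.0819), border zone replicates 1 (0.105) or 3 (0.0716), with a pseudocount of 1 (0.0999) and without a filter (0.0527). The other lists had 0 calls in limma. At an unadjusted p under 0.05 they had 1 higher in the peroxiredoxin, 2 in the NRF2, 1 in the haem and 0 in the glutathione list. Limma-voom called 1, 1, 1 and 0. Of all 2384 tested positions, 510 had an unadjusted p under 0.05 in either direction, and limma-voom called 257 higher and 39 lower. Nothing is read from these list counts. GLRX had 2.19 ± 0.54 (adjusted p = 0.0561) and TALDO1 had 1.70 ± 0.42 (0.0564), and both passed in the fit blocked on pig, at 0.00559 and 0.00697, and by limma-voom, at 0.0138 and 0.0103. FTH1 had 1.52 ± 0.48 (0.119), with 0.0491 in the blocked fit and 0.0103 by limma-voom, and TKT had 0.55 ± 0.19 (0.141). Further values were -0.49 for TXNIP, 0.28 for TXNRD1, 0.45 for TXNRD2, mitochondrial thioredoxin reductase, 0.67 for GSTM3, 0.68 for GSTO1, -0.70 for GPX3 and -0.14 for GSS, none of them past the threshold. AKR1B1, aldose reductase, had 0.63, IDH2 -0.43, the transferrin receptor TFRC -0.57, the haem exporter FLVCR1 0.58, FTL 0.71, MAOA 0.12 and NOS3 0.01, likewise not past it.

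In ischemic against border zone myocardium 0 genes of the 5 lists passed by limma and 0 by limma-voom. Over all 2384 tested positions 0.168% were higher and 0.965% lower by limma, and limma-voom called 27 higher and 65 lower. At an unadjusted p under 0.05 the haem list had 2 lower, the NRF2 list 1 lower, the oxidase list 1 higher and the peroxiredoxin and glutathione lists 0. This held for 373 of the 2384 positions in either direction, and nothing is read from these list counts. ALAS1 had -0.61 ± 0.20 (adjusted p = 0.194), HMOX2 had -0.71 ± 0.24 (0.204) and NOS3 had 1.09 ± 0.32 (0.154). IDH2 had -1.25 ± 0.52 (0.302), AKR1B1 -0.58, TKT 0.26 and PARK7 -1.11 ± 0.93. The thioredoxin and glutathione genes with the smallest adjusted p were TXNRD2 at -0.68, PRDX3 at -0.40, PRDX2 at -0.43, PRDX6 at 0.37, GSTM3 at 0.83, GSS at -0.32, MGST3 at -1.04 ± 0.76 and SOD3, extracellular superoxide dismutase, at 1.20 ± 1.88. Within pigs 1 to 3 the SOD3 difference was 0.90, -2.29 and 4.99. FTH1 had 0.61, FTL 0.58, MAOA 0.43 and NCF1 0.25.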

How the data were processed

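The authors aligned reads with Bowtie to susScr3, per the submitters' processing notes. No source used here gives versions, the counting program or strand, duplicate and multi-mapping rules. Values as deposited by the authors are RPKM over the gene span, introns included. Value times span times library total gave whole reads within 0.01 for 100% of nonzero values, which gave the depths. Accessions were named through a RefSeq table of Sscrofa11.1 (4793 of 4882 positions matched). The members, lists and tests were chosen with earlier results of these data known.

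Values were taken to log2(RPKM + 0.1), for positions averaging 0.5 RPKM or more, and fitted with limma 3.58.1 in R 4.3.3 (3 groups, 9 libraries, eBayes with trend and robust settings), 2-sided, with Benjamini-Hochberg adjustment over all 2384 positions. The longest span stood for a gene. Some genes of the lists are not reported here and enter no count or sum of a list. The text names all members, the 4 genes of each list with the smallest adjusted p per comparison, the 3 genes most correlated with a member, and, chosen after their values were seen, neighbours and some further list genes. Because the replicate numbers are pigs, samples are paired by animal, and deviations from group means correlated at -0.04 to 0.18 (median 0.07) within pigs against -0.16 to 0.08 between pigs. Alternatives were a pseudocount of 0.01 or 1, no filter or 2 RPKM, pig as a block, median scaling, quantile normalization, a fit on the groups compared, limma-voom on reads, another position per gene and each library left out. Scripts were tested on simulated data. Tables and figures were made in Python 3.11.15 (scipy 1.17.1, numpy 2.4.6, matplotlib 3.10.9, pandas 2.3.3).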

Additional observations from a re-analysis of the deposited data

How the results depend on the processing

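With pig as a block 752 positions passed in ischemic against healthy myocardium, against 659 without it. For the border zone against healthy it was 205 against 143, and for ischemic against the border zone 29 against 27. The block changed no call of a member. Over these comparisons the block left the mean SOD2 over SOD1 shifts at 0.95, 0.89 and 0.06, with exact sign-flip p of 0.25, 0.25 and 1, where 0.25 is the smallest possible.

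In ischemic against healthy myocardium 346 passed with a filter at 2 RPKM and 362 to 698 with a library left out. Median scaling gave 337 higher and 295 lower, and quantile normalization 249 and 251, against 442 and 217. In border zone against healthy 48 passed with a pseudocount of 1, 95 without a filter, 76 at 2 RPKM, 84 with median scaling, 85 with quantile normalization, 296 by limma-voom and 36 to 174 with a library left out. In ischemic against border zone the counts were 10 with a pseudocount of 1, 3 without a filter, 8 with median scaling, 5 with quantile normalization, 1 in a fit of both groups alone, 92 by limma-voom and 0 to 39 with a library left out. The causes were not tested.

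With a library left out, ischemic against healthy log2 differences were 2.65 to 3.42 for GPX1, -1.80 to -1.38 for CAT, 0.18 to 0.74 for SOD1 and 1.12 to 1.67 for SOD2. Border zone against healthy they were 2.26 to 2.78, -0.58 to -0.34, -0.32 to 0.23 and 0.68 to 0.94, and ischemic against border zone 0.16 to 0.93, -1.34 to -0.93, 0.27 to 0.71 and 0.30 to 0.85. The SOD1 value turned to 0.0634 by limma-voom in border zone against healthy. SOD2 over SOD1 in ischemic against border zone ran from -0.15 to 0.36 with a library left out. CAT and SOD1 fall under a filter at 2 RPKM and gave no value there. Each member has a single position, so the choice of position changed nothing.

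Among uncalled genes of border zone against healthy, the sign turned with quantile normalization for GSTM3 (-0.0108), FLVCR1 (-0.0134), MAOA (-0.41), NOS3 (-0.40) and RHOA (-0.11), and with median scaling for MAOA (-0.14), NOS3 (-0.25) and RHOA (-0.15). With a library left out the range crossed 0 for GPX3 (-1.37 to 0.213), NOS3 (-0.13 to 0.18) and RHOA (-0.0788 to 0.204). For ischemic against the border zone, USP4 turned to 0.0032 with quantile normalization, and with a library left out the range crossed 0 for USP4 (-0.224 to 0.273), PRDX6 (-0.0318 to 0.716), PARK7 (-1.84 to 0.0912), NCF1 (-0.173 to 0.814) and WTAP (-0.307 to 0.044).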

Other observations

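Pig 1 had the highest RPKM of its zone for 4 of 4 tested members in ischemic, 3 of 4 in border zone and 4 of 4 in healthy myocardium. Over all 2384 tested positions pig 1 was highest for 48.0%, 43.4% and 44.3%. The exception among the members was CAT in the border zone, where pig 2 was highest.

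SLC11A1, a metal transporter of phagocyte membranes, has its longest position on an unplaced scaffold with no read. Its shorter position (chromosome 15 from 133453353 to 133454896) had 3.17 ± 1.59 RPKM in ischemic, 2.84 ± 0.862 RPKM in border zone and 0 RPKM in healthy libraries. It reached the filter on low values only through the zones where it is high, so no test of it is given.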
